A study of Mus musculus with 10 samples.

Results

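The fibrillar collagens of bone and cartilage were examined as 8 genes, namely Col1a1, Col1a2, Col3a1, Col5a1 and Col5a2, which encode chains of collagen types I, III and V, and Col2a1, Col11a1 and Col11a2, which encode chains of types II and XI. They were chosen by symbol, with earlier results of these data known, out of 35705 genes for which an abundance could be summed. All 8 were among the 13841 genes tested. RNA was sequenced from the medial knee cartilage cap of 10 mice, 5 wild-type and 5 carrying a null allele of Mir324, a microRNA gene, with 1 library per mouse and no treatment. The comparison between genotypes asked which transcripts differ in this tissue when miR-324 is missing, in a study concerned with osteoblasts, osteoclasts and bone. The labels name the tissue as articular cartilage and the cell type as chondrocyte. The age, sex, strain background, litter and sequencing batch of the mice, the kind of null allele and any promoter or Cre line were not given in the sources used here.

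Fibrillar collagens are secreted as procollagens of 3 chains wound into a helix, which assemble outside the cell into banded fibrils. Type I collagen, made of Col1a1 and Col1a2 chains, is the main protein of the bone matrix and of tendon, and type II, made of Col2a1 chains alone, is the main collagen of cartilage. Types V and XI are minor collagens that sit within type I and type II fibrils respectively and limit their diameter, and type III accompanies type I in soft connective tissue. Type XI collagen of cartilage is built from Col11a1, Col11a2 and a chain that is a product of Col2a1.

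Abundance was given in TPM, a level per transcript length that is scaled to the same total in every library, so that levels can be compared between genes and read depth is unknown. Each library came from more than cartilage cells. Haemoglobin genes took up 11.2% to 19.7% of TPM in the wild-type group and 15.8% to 26.1% in null libraries, and a larger share there lowers the TPM of every other gene. Marker sums were taken over every marker of a list, also those averaging under 1 TPM. Of the chondrocyte markers listed, 9 of 11 averaged at least 1 TPM (Matn1 and Matn3 did not). The summed level of all 11 was 2376 to 7452 TPM in the wild-type group and 2181 to 3478 TPM in null mice. All 10 osteoblast and osteocyte markers passed 1 TPM, with sums of 4259 to 11020 and 2593 to 4883 TPM. Fibroblast and tendon markers (8 of 9 passed, Tnmd did not) summed to 541 to 1980 and 512 to 1230 TPM. Osteoclast markers (6 of 7 passed, Calcr did not) summed to 1435 to 3243 and 942 to 1933 TPM, and neutrophil markers (7 of 7 passed) to 55632 to 109003 and 54585 to 111430 TPM. Of the 5 skeletal muscle markers, Acta1, Ckm and Myh4 averaged under 1 TPM over the 10 mice, and Mylpf was the highest at 12.3 ± 1.80 TPM in the wild-type group and 17.5 ± 6.62 TPM in null mice. Their sum was 51.4 TPM in null replicate 2, which stood apart, and 13.3 to 21.0 TPM in the other 9 mice. None of these markers was at 0 in all mice. Estimates in null mice were lower for 8 of 9 chondrocyte and 10 of 10 osteoblast and osteocyte markers tested. They were also lower for 6 of 6 osteoclast and 7 of 7 neutrophil markers. They were higher for 6 of 8 fibroblast and tendon, 2 of 2 skeletal muscle and 7 of 7 erythroid markers. Over all genes tested, 60.0% had a lower estimate. Few genes made up most of some sums. In the wild-type group and null mice, Dcn averaged 968 and 781 TPM of fibroblast and tendon sums averaging 1088 and 921 TPM. That sum was lower in null mice on average, though 6 of the 8 markers tested had higher estimates. Prg4 averaged 2902 and 1737 TPM of chondrocyte sums averaging 4263 and 2741 TPM. In the wild-type group, Bglap and Bglap2 averaged 3577 and 3272 TPM of an osteoblast and osteocyte sum averaging 7854 TPM. Wild-type replicate 1 had the highest chondrocyte and fibroblast sums of the 10 mice, and results that change without it are given below.

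The sequence feature that unites the 8 genes is the Gly-X-Y repeat, in which each triplet of residues opens with glycine. In the main annotated transcript of each gene (GENCODE M21, GRCm38) the longest unbroken run held 338 to 344 triplets. This run took up 55.2% of the coded protein in Col5a1 and 74.1% in Col1a2, which were the ends of the range. Proline made up 19.1% (Col1a2) to 24.1% (Col5a1) of the residues in it. Between 21 exons (Col1a1) and 31 exons (Col11a1 and Col11a2) of each transcript were exactly 54 bases long, which is 18 codons. One such exon from each of 4 chains is shown as an example, the first of this length lying wholly within the Gly-X-Y run. The in-frame glycine codons are in capitals, on the coding strand:
Col1a1 exon 8 (chr11:94939904-94939957, plus strand): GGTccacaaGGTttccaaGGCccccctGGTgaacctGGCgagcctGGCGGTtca
Col3a1 exon 6 (chr1:45325360-45325413, plus strand): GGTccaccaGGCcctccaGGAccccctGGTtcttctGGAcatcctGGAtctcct
Col2a1 exon 10 (chr15:97996489-97996542, minus strand): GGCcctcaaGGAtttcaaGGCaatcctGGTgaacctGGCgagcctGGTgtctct
Col11a1 exon 15 (chr3:114108281-114108334, plus strand): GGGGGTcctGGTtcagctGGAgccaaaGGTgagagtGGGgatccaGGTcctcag
The exons of Col3a1 and Col2a1 hold 6 glycine codons each. Those of Col1a1 and Col11a1 hold 7, the added one falling at a position other than the first of a triplet.

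Type I chains were the most abundant of the 8 and were lower in null mice on average. Col1a1 (ENSMUSG00000001506, chromosome 11, 94936224 to 94953042, plus strand) was at 2005, 1165, 1319, 1905 and 1215 TPM in wild-type replicates 1 to 5. In null replicates 1 to 5 it was at 501, 826, 1276, 1043 and 501 TPM. The groups overlapped through null replicate 3 alone, and 4 of 5 null mice lay below every wild-type mouse. Means were 1522 ± 401 and 829 ± 339 TPM (SD, n = 5 each), a change of -0.94 on the log2(TPM + 1) scale (SE 0.272). The unadjusted limma p was 0.00503, and the p adjusted over all genes tested was 0.308, which did not pass the threshold of 0.05. A two-sided exact permutation test of this gene alone, over every split of the mice, gave p = 0.0238, unadjusted.

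Col1a2 (ENSMUSG00000029661, chromosome 6, 4504814 to 4541544, plus strand), the partner chain, was at 2211, 1098, 1468, 2122 and 1391 TPM in the wild-type group and 568, 947, 1361, 1092 and 518 TPM in null mice. The same 2 wild-type mice, replicates 1 and 4, were the highest and the same 2 null mice, replicates 1 and 5, the lowest as for Col1a1. Means were 1658 ± 485 and 897 ± 356 TPM, with a log2 change of -0.93 (SE 0.281, limma p = 0.00634, adjusted p = 0.312, exact permutation p = 0.0159). Wild-type replicates 1 and 4 also had the highest osteoblast and osteocyte marker sums (10500 and 11020 TPM, against 4259 to 7040 TPM in the other 3), and null replicates 1 and 5 had the lowest (2593 and 2750 TPM). In whole tissue, fewer cells of a type and less RNA per cell cannot be told apart, and the part of osteoblast number in these levels was not tested.

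Type III collagen went the other way and varied most. Col3a1 (ENSMUSG00000026043, chromosome 1, 45311538 to 45349706, plus strand) was at 161, 36.3, 13.4, 80.6 and 12.8 TPM in the wild-type group and 64.2, 143, 161, 42.7 and 31.0 TPM in null mice. The range was 12.5-fold among wild-type and 5.20-fold among null mice, against at most 2.97-fold within a genotype for any other member. Means were 60.8 ± 62.3 and 88.5 ± 59.8 TPM, a log2 change of 0.89 (SE 0.695, limma p = 0.226, adjusted p = 0.687, exact permutation p = 0.310), and 3 of 5 null mice lay above the wild-type mean. The size rested on single mice, since the change was 1.40 without wild-type replicate 1 (adjusted p = 0.590), 0.52 without replicate 3 and 0.51 without replicate 5. The fibroblast and tendon markers were lower in 2 and higher in 6 of the 8 tested by estimate, and 0 of them passed the adjusted threshold. An estimate below 0 was found for 60.0% of all genes tested.

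Of the type V chains, Col5a1 had the lowest mean of the 8 members, and Col5a2 was in the range of the type II, III and XI chains. Col5a1 (ENSMUSG00000026837, chromosome 2, 27886425 to 28039514, plus strand) was at 29.9, 18.1, 14.0, 20.8 and 14.1 TPM in the wild-type group and 10.2, 17.3, 20.5, 12.6 and 8.88 TPM in null mice. Null replicates 2 and 3 lay inside the wild-type range and the other 3 null mice below it. The means of 19.4 ± 6.56 and 13.9 ± 4.90 TPM gave a log2 change of -0.46 (SE 0.249, limma p = 0.0911, adjusted p = 0.513, exact permutation p = 0.151). Without wild-type replicate 1 the change was -0.29. Col5a2 (ENSMUSG00000026042, chromosome 1, 45374321 to 45503282, minus strand) lies next to Col3a1 on the opposite strand. It was at 92.3, 47.9, 53.3, 86.6 and 49.7 TPM in the wild-type group and 24.9, 46.6, 67.6, 47.1 and 25.5 TPM in null mice, so that 4 of 5 null mice lay below the lowest wild-type mouse. The means were 65.9 ± 21.6 and 42.3 ± 17.8 TPM, with a log2 change of -0.67 (SE 0.289, limma p = 0.0393, adjusted p = 0.410, exact permutation p = 0.0873).

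Type II collagen was at a small fraction of the type I level in these caps. Col2a1 (ENSMUSG00000022483, chromosome 15, 97975602 to 98004695, minus strand) was at 143, 71.0, 66.3, 102 and 74.6 TPM in the wild-type group and 33.9, 75.0, 92.2, 51.6 and 42.1 TPM in null mice. Null replicates 2 and 3 lay among the wild-type mice, and the other 3 below them. Means were 91.4 ± 31.9 and 59.0 ± 24.1 TPM, a log2 change of -0.65 (SE 0.281, limma p = 0.0387, adjusted p = 0.410, exact permutation p = 0.103). Other cartilage genes are given for scale. Prg4, which encodes the surface lubricant lubricin, was at 2902 ± 1492 TPM in the wild-type group and 1737 ± 411 TPM in null mice, and Acan, the main proteoglycan core protein, was at 146 ± 83.4 and 72.0 ± 8.82 TPM.

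Col2a1 is spliced with or without its second exon, which encodes a cysteine-rich domain of the amino-terminal propeptide. The form with the exon is known from chondrocyte precursors and the form without it from mature chondrocytes. The exon is 204 bases long and is shown because it separates the only Col2a1 transcripts with levels above 1 TPM, Col2a1-201 and Col2a1-202. Its 10 cysteine codons are in capitals:
Col2a1 exon 2 (chr15:98000403-98000606, minus strand): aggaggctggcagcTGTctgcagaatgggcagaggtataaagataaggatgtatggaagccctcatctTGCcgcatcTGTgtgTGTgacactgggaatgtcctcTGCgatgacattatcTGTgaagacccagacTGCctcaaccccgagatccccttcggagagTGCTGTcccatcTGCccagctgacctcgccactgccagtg
Col2a1-201, which holds this exon, made up 25.0%, 30.8%, 25.4%, 36.9% and 38.4% of the gene's TPM in wild-type replicates 1 to 5. In null replicates 1 to 5 it made up 29.4%, 22.1%, 42.6%, 29.4% and 22.5%. The groups overlapped across nearly their whole range, with means of 31.3 ± 6.25% and 29.2 ± 8.27% (SD, n = 5). The form without the exon, Col2a1-202, was the larger in all 10 mice, at 55.5% to 77.8%. Both transcripts share nearly all other bases, but their lengths, 5104 bases for Col2a1-201 and 4862 for Col2a1-202, differ by more than this exon. The shares therefore rest on reads over this exon, its junctions and the other bases that differ. They are estimates with no depth given.

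Type XI chains were both lower in null mice on average. Col11a1 (ENSMUSG00000027966, chromosome 3, 114030540 to 114220718, plus strand) was at 98.5, 53.1, 66.1, 103 and 64.7 TPM in the wild-type group and 22.8, 44.6, 67.3, 50.8 and 22.7 TPM in null mice. As for the type I chains, null replicate 3 alone reached the wild-type range. Means of 77.1 ± 22.2 and 41.6 ± 19.1 TPM gave a log2 change of -0.95 (SE 0.304, limma p = 0.00892, adjusted p = 0.319, exact permutation p = 0.0317), the most negative of the 8. Col11a2 (ENSMUSG00000024330, chromosome 17, 34039437 to 34066685, plus strand) was at 163, 74.0, 102, 141 and 99.9 TPM in the wild-type group and 42.6, 81.9, 107, 88.5 and 47.3 TPM in null mice. All 5 null mice lay below the wild-type mean and 2 lay below every wild-type mouse. Means were 116 ± 35.5 and 73.5 ± 27.8 TPM, a log2 change of -0.68 (SE 0.277, limma p = 0.0302, adjusted p = 0.381, exact permutation p = 0.0873).

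**Figure D1:**
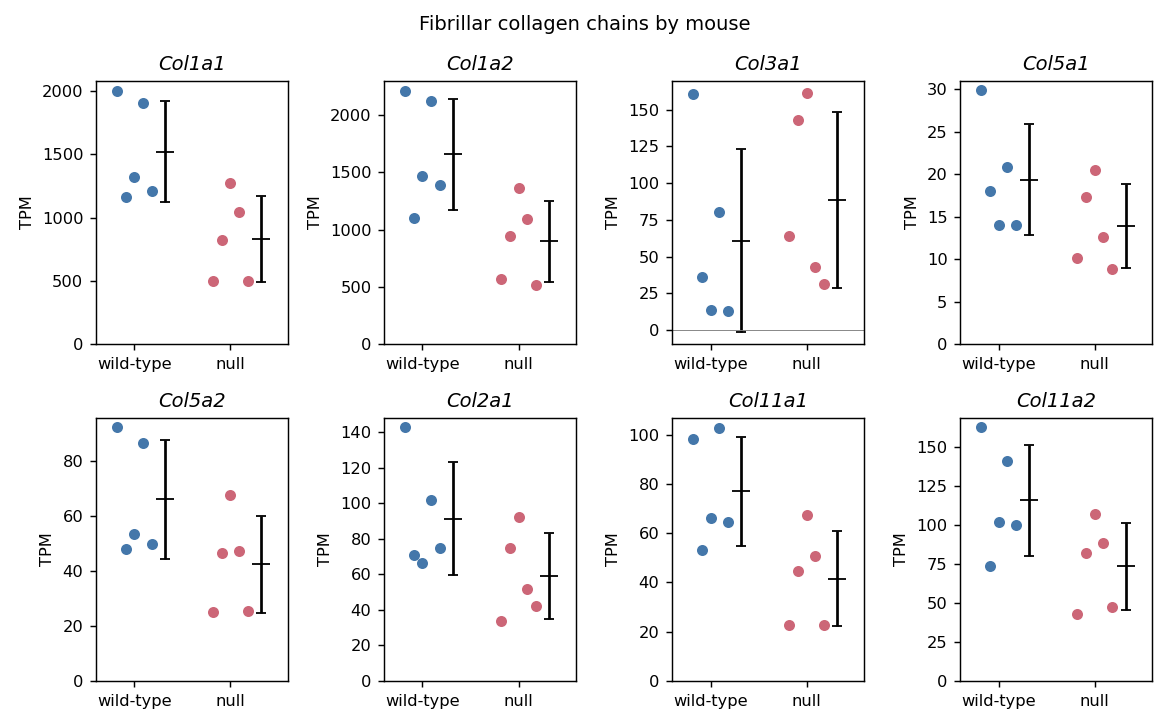
TPM of each chain (y axis, linear, a separate scale per gene) in wild-type (blue) and null (red) mice, 1 point per mouse in replicate order, with the mean and SD of 5 mice as a bar at the right of each group. For Col1a1, 4 of 5 null mice lie below all wild-type mice, whereas for Col3a1 the null mice, at 31.0 to 161 TPM, lie within or at the top of the wild-type range of 12.8 to 161 TPM (the lower SD bar of its wild-type group reaches below 0).

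Col11a1 also has mutually exclusive sixth exons that encode an acidic or a basic stretch of the variable region of the propeptide. The acidic one is in Col11a1-201 and the basic one in Col11a1-202. The exons are shown for this contrast, with codons for aspartate or glutamate in capitals in the first and codons for lysine or arginine in capitals in the second:
Col11a1-201 exon 6 (chr3:114094517-114094633, plus strand): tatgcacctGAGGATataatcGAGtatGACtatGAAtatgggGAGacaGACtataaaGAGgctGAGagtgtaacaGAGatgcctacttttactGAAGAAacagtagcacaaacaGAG
Col11a1-202 exon 6 (chr3:114094861-114095013, plus strand): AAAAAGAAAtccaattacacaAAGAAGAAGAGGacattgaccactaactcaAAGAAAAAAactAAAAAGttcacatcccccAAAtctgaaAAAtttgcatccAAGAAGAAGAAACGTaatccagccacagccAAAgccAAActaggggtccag
The acidic exon has 13 acidic and 1 basic codon in 117 bases, and the basic exon 21 basic and 1 acidic codon in 153 bases. Col11a1-201 made up 40.2% to 50.8% of the gene's TPM and Col11a1-202 only 0.925% to 2.13% over the 10 mice. Col11a1-202 is a short model of 2064 bases, so its share covers part of the gene.

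Read together, 7 of the 8 chains had a lower and 1 a higher estimate in null mice, and none passed the adjusted threshold. In the same fit, 0 of 13841 genes (0.00%) had an adjusted p under 0.05, and the smallest adjusted p of any gene was 0.277. At an unadjusted limma p under 0.05, 6 chains were lower, against 7.30% of all genes tested, and 0 were higher, against 4.28%. An estimate below 0 was found for 60.0% of all genes. The median change of the 8 chains was -0.68 (range -0.95 to 0.89), beside a median of -0.045 over all genes tested. The groups did not overlap for 0 of the 8 chains, while all null mice lay below all wild-type mice for 1.06% of genes. The count of 6 was 3 when TPM were rescaled without haemoglobin genes, and also 3 when wild-type replicate 1, wild-type replicate 4, null replicate 1 or null replicate 5 was left out. Without wild-type replicate 1 the changes of Col2a1, Col5a2 and Col11a2 were -0.48, -0.54 and -0.55. Their unadjusted limma p was then 0.0991, 0.0965 and 0.0762. The chains are not independent of one another, as the correlations below show, so their count is not a count of separate results.

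**Figure D2:**
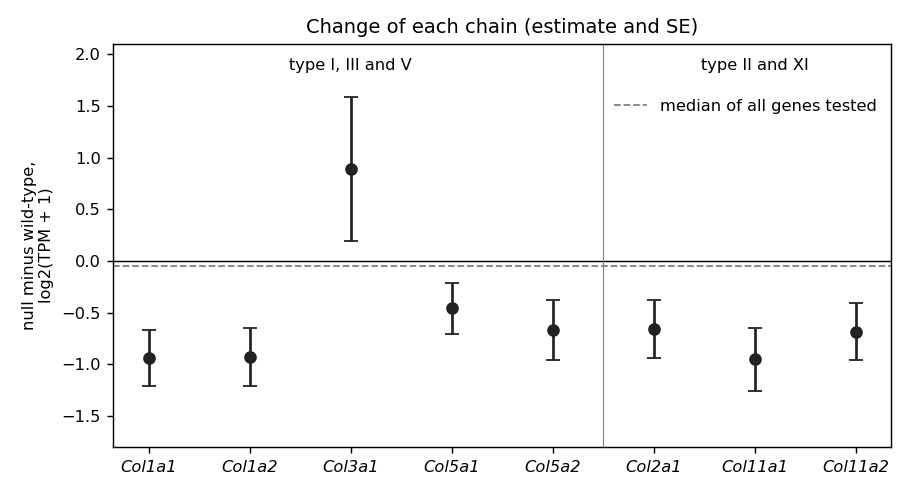
Estimated change of each chain, null minus wild-type on the log2(TPM + 1) scale (y axis), with its standard error as bars, for type I, III and V chains on the left and type II and XI chains on the right. The dashed line is the median of all genes tested at -0.045, and Col3a1 at 0.89 is the only chain above it.

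Summed over chains, types I, III and V held 2365 to 4499 TPM in the wild-type group and 1085 to 2886 TPM in null mice, and types II and XI held 198 to 404 and 99.3 to 267 TPM. The 8 genes together made up 0.256% to 0.490% of a wild-type library and 0.120% to 0.315% of a null library. The ratio of the first sum to the second was 11.1, 11.9, 12.2, 12.2 and 11.2 in wild-type mice. It was 11.8, 9.83, 10.8, 11.7 and 9.69 in null mice, with 3 of 5 below every wild-type mouse. Means were 11.7 ± 0.529 and 10.8 ± 0.994 (SD, n = 5), given as a description, and the sum of each side was lower in null mice on average, by 43.7% for the first and 38.8% for the second. The level of the ratio depended on the transcripts summed. With protein-coding transcripts alone, the wild-type and null means were 15.9 and 14.8. The shares given next are for all transcripts. Type I chains made up 88.3 ± 1.46% of the members' TPM in the wild-type group and 84.5 ± 2.42% in null mice, and type III made up 1.47 ± 1.17% and 4.22 ± 1.98%. Type V took 2.35 ± 0.181% and 2.77 ± 0.183%, type II 2.52 ± 0.333% and 2.94 ± 0.573%, and type XI 5.34 ± 0.243% and 5.61 ± 0.279%.

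Ratios of chains within a library do not change when the whole library is rescaled, so they do not depend on the haemoglobin share. Differences between genotypes in 8 log2 ratios were tested with a two-sided exact permutation test over the 252 splits of the 10 mice, with Benjamini-Hochberg adjustment over the 8, and the smallest p the test can give is 0.00794. None of the 8 passed after adjustment. Col1a1/Col1a2, the chains of type I, was held most closely, at 0.872 to 1.06 over all mice. Its log2 difference was -0.0049 (SE 0.0586, exact p = 0.984, adjusted p = 0.984), and its sign turned when some single mice were left out. Col5a1/Col5a2 was at 0.298 ± 0.0539 in wild-type and 0.340 ± 0.0555 in null mice (log2 difference 0.19, SE 0.157, exact p = 0.238, adjusted p = 0.317). The difference was 0.12 without wild-type replicate 4 and also 0.12 without null replicate 1.

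Col11a1/Col11a2 was at 0.605, 0.717, 0.649, 0.729 and 0.648 in wild-type and 0.534, 0.544, 0.627, 0.574 and 0.480 in null mice. All 5 null mice lay below the mean of the wild-type mice, and the groups overlapped through null replicate 3. The log2 difference was -0.28 (SE 0.0809, exact p = 0.0159, adjusted p = 0.106). This difference depended on the transcripts summed. It was -0.18 with protein-coding transcripts alone (exact p = 0.183, adjusted p = 0.286) and also -0.18 with transcripts at least 50% as long as the longest of their gene, a choice made after seeing the data (exact p = 0.183, adjusted p = 0.305).

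Col3a1/Col1a1 was at 0.0801, 0.0312, 0.0102, 0.0423 and 0.0105 in wild-type and 0.128, 0.173, 0.126, 0.0409 and 0.0619 in null mice. All 5 null mice had a ratio above the mean of the wild-type mice, and 3 a ratio above every wild-type mouse. The log2 difference of 1.86 (SE 0.696), a 3.63-fold ratio of geometric means, had an exact p of 0.0397 and an adjusted p of 0.106. Col5a1/Col1a1 was higher than in any wild-type mouse in 4 of 5 null mice, with means of 0.0127 ± 0.00232 and 0.0174 ± 0.00358 (log2 difference 0.45, SE 0.183, exact p = 0.0397, adjusted p = 0.106). Both ratios missed the threshold after adjustment, under every replicate left out as well, where the adjusted p lay between 0.0508 and 0.233 for each. The unadjusted exact p then lay between 0.0238 and 0.0714 for Col3a1/Col1a1 and between 0.0159 and 0.0873 for Col5a1/Col1a1. Neither ratio therefore stayed under 0.05 before adjustment whichever mouse was left out.

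The main collagen of cartilage was set against that of bone in the ratio Col2a1/Col1a1, which was 0.0595 ± 0.00811 in wild-type and 0.0729 ± 0.0160 in null mice. The log2 difference was 0.27 (SE 0.175, exact p = 0.159, adjusted p = 0.254), and null replicate 4, at 0.0495, was the lowest of the 10 mice. Within cartilage collagens, the log2 difference was -0.31 for Col11a1/Col2a1 (SE 0.185, exact p = 0.127, adjusted p = 0.254). For Col11a2/Col2a1 it was -0.028 (SE 0.155, exact p = 0.865, adjusted p = 0.984), and its sign turned when some single mice were left out.

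**Figure D3:**
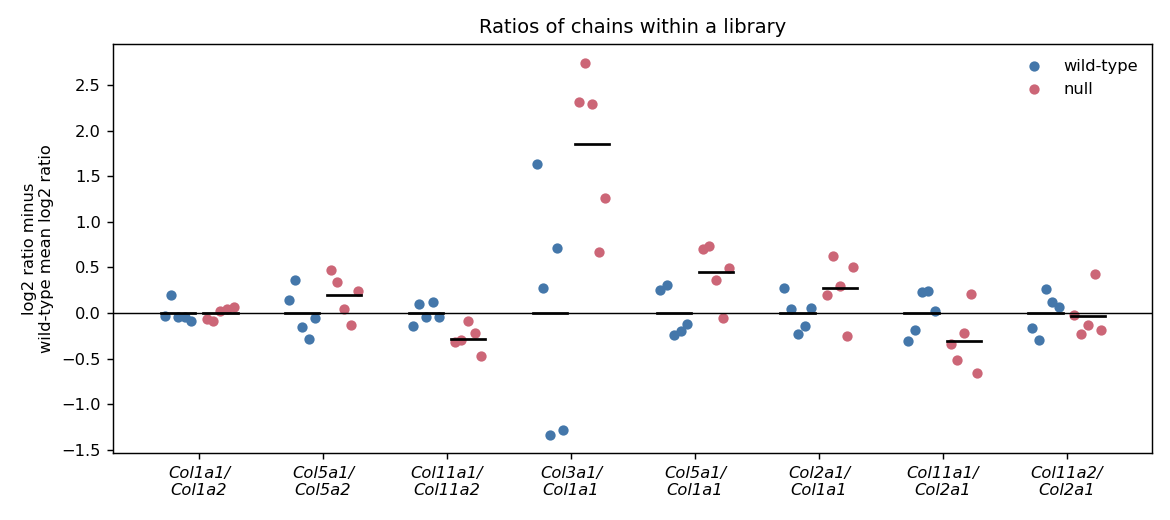
Log2 ratio of 2 chains in each mouse, minus the wild-type mean of that ratio (y axis), for 8 ratios (x axis), with wild-type mice in blue, null mice in red and group means as black bars. Col1a1/Col1a2 stays near 0 in both genotypes, while the null mean of Col3a1/Col1a1 lies at 1.86 with a spread of similar size.

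Over the 10 mice, most chains moved together. Pearson's r and Spearman's rho of log2(TPM + 1) were computed for 7 pairs with permutation p-values from 100000 resamples, adjusted over the 7. Col1a1 and Col1a2 had r = 0.992 (permutation p = 1e-05, the smallest these resamples can give, adjusted p = 7e-05) and rho = 0.976 (adjusted p = 7e-05). Col1a1 and Col2a1 had r = 0.901 (permutation p = 0.00056, adjusted p = 0.000784) and rho = 0.794 (adjusted p = 0.0101). Col1a1 and Col5a1 had r = 0.854 (permutation p = 0.00171, adjusted p = 0.00199) and rho = 0.794 (adjusted p = 0.0101). Without null replicates 1 and 5, the mice farthest from the median of Col1a1, the respective r was 0.978, 0.762 and 0.667.

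Within types, Col5a1 and Col5a2 had r = 0.918 (permutation p = 0.00015, adjusted p = 0.000467) and rho = 0.842. Col2a1 had r = 0.928 with Col11a2 (permutation p = 0.0002, adjusted p = 0.000467; rho = 0.842) and r = 0.909 with Col11a1 (permutation p = 0.00042, adjusted p = 0.000735; rho = 0.818). The Spearman adjusted p was 0.00819 for the first 2 of these pairs and 0.0101 for the third. Without the 2 mice farthest from the median of the first gene, r was 0.848, 0.835 and 0.855 in the same order. These 6 pairs share the library total and the genotype difference. With values centred within genotype, their r lay between 0.826 and 0.984.

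Col3a1 did not follow Col1a1 over the pooled mice, with r = 0.163 (permutation p = 0.648, adjusted p = 0.648) and rho = 0.224 (permutation p = 0.536, adjusted p = 0.536), and r = 0.157 without null replicates 1 and 5. With values centred within genotype, r was 0.641 (permutation p = 0.0492, adjusted p = 0.0492) and rho 0.612 (permutation p = 0.0669, adjusted p = 0.0669). The resamples shuffled the centred values over all 10 mice without allowing for the removed group means, so both p-values may be too small. Whether Col3a1 rises with Col1a1 within a genotype is therefore not settled by these values. The genotype means of the 2 genes differed in opposite directions, and neither difference passed the adjusted threshold.

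**Figure D4:**
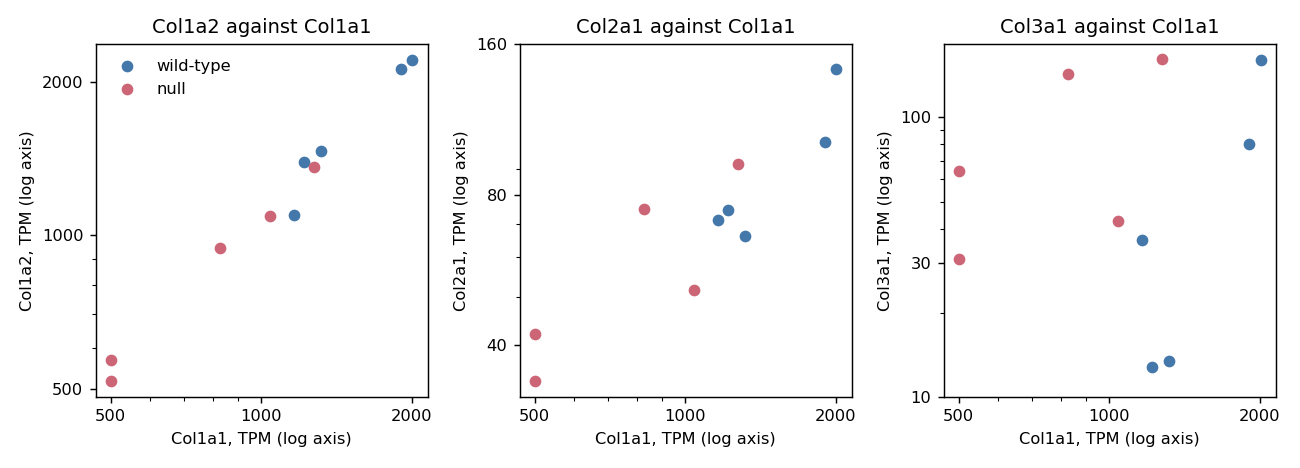
Col1a2, Col2a1 and Col3a1 (y axes, TPM, log axis) against Col1a1 (x axis, TPM, log axis), 1 point per mouse, wild-type in blue and null in red. Col1a2 lies on a line with Col1a1 (r = 0.992), Col2a1 scatters more (r = 0.901), and Col3a1 shows no common line over the 10 mice (r = 0.163).

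The genes whose pattern over the 10 mice was most like that of a chain were ranked by Pearson's r among 10325 other genes that averaged 5 TPM or more, as a description. For Col1a1 they were Lox (r = 0.984), the lysyl oxidase that starts collagen crosslinks, Sparc (0.983), which encodes the bone matrix protein osteonectin, Mras (0.974), Entpd3 (0.963) and Tmem167 (0.961). Sparc was at 2117 ± 668 TPM in the wild-type group and 1224 ± 396 TPM in null mice. For Col2a1 they were Cd2ap (0.981), Smad6 (0.979), an inhibitor of BMP signalling, Chpt1 (0.974), Kank1 (0.972) and Trit1 (0.972). The list for Col3a1 was drawn up after its values were seen, and held Fhl1 (0.967), Thbs4 (0.967), a matrix glycoprotein abundant in tendon, Tppp3 (0.960), Aspn (0.942), a small leucine-rich proteoglycan, and Prnp (0.940). Thbs4 was at 11.3 ± 7.60 and 15.4 ± 9.18 TPM and Aspn at 4.56 ± 2.55 and 7.57 ± 4.28 TPM in the wild-type group and null mice.

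The level of a gene depends on which of its annotated transcripts are summed. Over 99.1% of Col1a1 and Col1a2 TPM in each mouse came from 1 full-length transcript each. In Col3a1, by contrast, 47.9% to 55.2% came from Col3a1-205, a model of 737 bases that lies within exons 36 to 50 of the full-length Col3a1-201 (5564 bases). In Col11a1, 47.6% to 58.0% came from Col11a1-204, a model of 2570 bases annotated for nonsense-mediated decay that spans exons 44 to 67 of 67. In Col11a2, Col11a2-207, a retained-intron model of 836 bases over exons 54 to 62 of 64, made up 29.6 ± 1.95% in wild-type and 34.2 ± 3.38% in null mice. In 4 of the 5 null mice it exceeded the mean of the wild-type mice, with wild-type values of 32.6%, 29.2%, 29.9%, 29.3% and 27.1% and null values of 29.2%, 36.8%, 32.8%, 34.7% and 37.6%. All 3 short models lie toward the 3′ end, and since TPM divides by length, a share of TPM is not a share of reads.

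**Figure D5:**
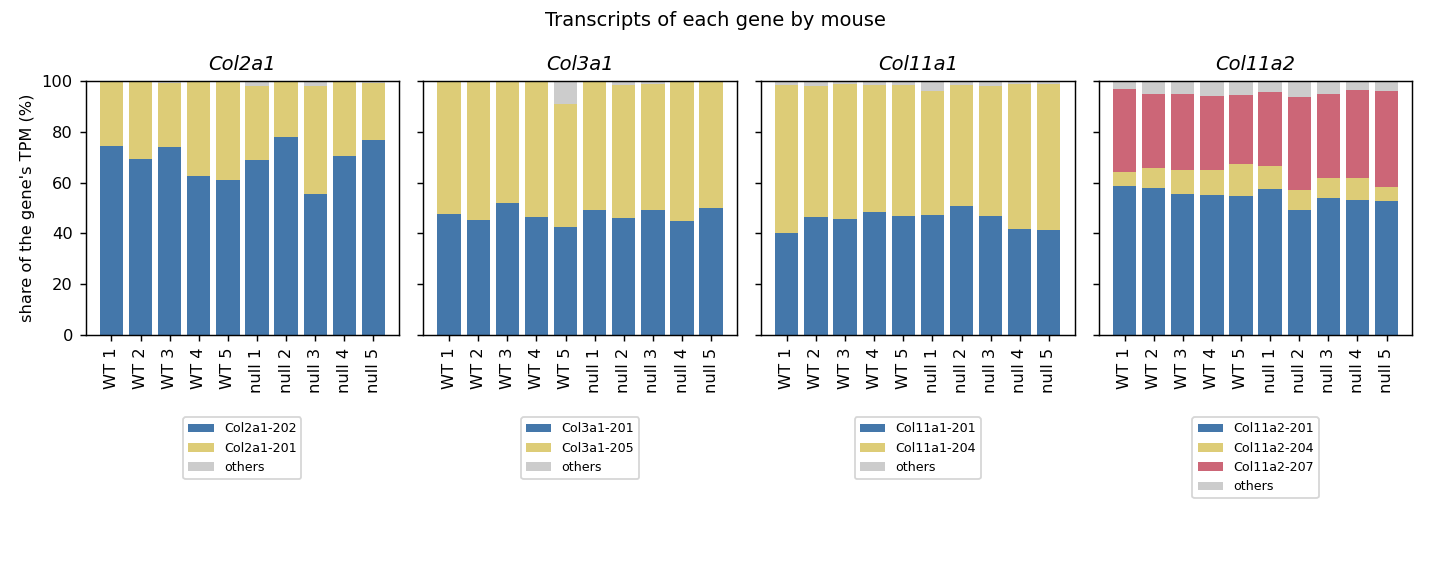
Share of the gene's TPM (y axis, percent) held by each named transcript in each mouse (x axis, WT for wild-type), with all other transcripts of the gene in grey, for Col2a1, Col3a1, Col11a1 and Col11a2. Col3a1-205 and Col11a1-204, both partial models, hold 47.6% to 58.0% of their gene in every mouse, and the exon 2 form Col2a1-201 holds 22.1% to 42.6%.

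Summed over all transcripts, the order of mean levels over the 10 mice was Col1a2 (1278 TPM), Col1a1 (1175), Col11a2 (94.7), Col2a1 (75.2), Col3a1 (74.6), Col11a1 (59.3), Col5a2 (54.1) and Col5a1 (16.6). Col1a2 exceeded Col1a1 in 9 of 10 mice, and Col1a1 exceeded all lower chains in 10 of 10. Among the middle chains the order was not steady, since Col2a1 exceeded Col3a1 in 6, Col3a1 exceeded Col11a1 in 5 and Col11a1 exceeded Col5a2 in 6 of 10 mice. Col5a2 exceeded Col5a1 in 10 of 10. With transcripts at least 50% as long as the longest of their gene, Col2a1 (74.8 TPM) stood above Col11a2 (64.7) in 8 of 10 mice, whereas with all transcripts Col11a2 was the higher in 10 of 10. Col3a1 then averaged 35.5 and Col11a1 27.0 TPM, below Col5a2 at 53.0 TPM.

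The wider collagen pathway was read from 6 lists, chosen like the members with earlier results of these data known. Of 60 genes listed, 55 passed the filter, 46 had a lower and 9 a higher estimate in null mice, with a median change of -0.37 beside -0.045 for all genes. An estimate below 0 was found for 60.0% of all genes. At an unadjusted limma p under 0.05, 14 were lower and 2 higher, against 7.30% and 4.28% of all genes. None had an adjusted p under 0.05, the smallest being 0.292 (Lox). Lox followed Col1a1 closely (r = 0.984), and the list genes were not shown to vary independently. Their counts, here and in each list, are not counts of separate results. Of the other fibrillar chains, 3 of 3 had lower estimates, with Col24a1 at 4.62 ± 2.22 and 2.67 ± 0.933 TPM (log2 change -0.58, adjusted p = 0.410) and Col27a1 (-0.52) and Col5a3 (-0.34) not reaching an unadjusted p under 0.05.

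Genes that modify and fold the chains were lower by estimate in 16 of 17 tested, 6 of them with an unadjusted p under 0.05 (median change -0.41). Over all genes tested, 60.0% had an estimate below 0, and 7.30% were lower at an unadjusted limma p under 0.05. P3h4, a partner in lysyl hydroxylation, was at 31.5 ± 15.1 and 15.1 ± 4.24 TPM (log2 change -0.93), Crtap, of the prolyl 3-hydroxylation complex, at 72.7 ± 16.5 and 51.1 ± 8.94 TPM (-0.49), and the galactosyltransferase gene Colgalt2 at 24.8 ± 12.4 and 13.5 ± 1.52 TPM (-0.73). P4ha3 was under the filter. All 10 tested genes of propeptide removal and crosslinking had lower estimates, 4 with an unadjusted p under 0.05 (median -0.44), and Adamts3, Tll1 and Tll2 were under the filter. Lox was at 52.9 ± 12.1 and 31.4 ± 9.24 TPM (log2 change -0.75, adjusted p = 0.292), Adamts2, which removes the amino-terminal propeptide, at 19.3 ± 2.87 and 13.3 ± 3.93 TPM (-0.53), and Loxl4 at 8.01 ± 3.54 and 4.72 ± 1.14 TPM (-0.59).

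Fibril-associated and surface partners were mixed, with 5 lower and 3 higher estimates of 8 tested (median -0.16) and Col9a1 under the filter. Over all genes tested, 60.0% had an estimate below 0. At an unadjusted limma p under 0.05, Col9a2 was lower and Col14a1 higher, against 7.30% lower and 4.28% higher of all genes. Col9a2, a chain of the collagen that coats type II fibrils, was at 12.6 ± 5.66 and 5.93 ± 1.35 TPM (log2 change -0.89, adjusted p = 0.316). Col14a1, which coats type I fibrils, had a higher estimate, at 2.79 ± 1.49 and 5.36 ± 2.38 TPM (0.75, adjusted p = 0.358), and exceeded the mean of the wild-type mice in all 5 null mice. Col12a1, of the same kind, had a lower one, at 21.5 ± 10.8 and 12.7 ± 7.72 TPM (-0.75, adjusted p = 0.509).

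Of the 8 collagen receptors, 7 had lower estimates and none an unadjusted p under 0.05 (median -0.32). Over all genes tested, 60.0% had an estimate below 0, and 7.30% were lower and 4.28% higher at an unadjusted limma p under 0.05. The 3 receptors with the smallest unadjusted p were the endocytic receptor Mrc2 (-0.53), the integrin chain Itga1 (-0.29) and the receptor tyrosine kinase Ddr2 (-0.37). Of the 9 transcription factors known for these genes, 5 had lower and 4 higher estimates (median -0.25), and the 3 named here had an unadjusted p under 0.05. Sox9, the chondrocyte regulator that acts on Col2a1 and Col11a2, was at 10.1 ± 5.73 and 5.46 ± 0.804 TPM (log2 change -0.66, adjusted p = 0.382). Its partner Sox6 was at 12.4 to 27.1 and 22.5 to 27.5 TPM (0.49, adjusted p = 0.342) and exceeded the mean of the wild-type mice in all 5 null mice. Sox6 is also a gene of red cell precursors, and all 7 erythroid markers had higher estimates in null mice, with sums of 112640 to 198844 TPM in the wild-type group and 159238 to 263631 TPM in null mice, whose part in this was not tested. Creb3l1, which acts on Col1a1 in osteoblasts, was at 18.2 ± 5.57 and 11.2 ± 3.40 TPM (-0.64, adjusted p = 0.350).

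The 3′ ends of the chains were searched for sites of the missing microRNA. Its mature strands, from RefSeq (GRCm38.p6, plus strand of chromosome 11), are shown with the seed, bases 2 to 8, in capitals:
mmu-miR-324-5p (chr11:70012060-70012082): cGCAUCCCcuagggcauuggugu
mmu-miR-324-3p (chr11:70012095-70012114): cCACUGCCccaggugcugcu
The matches to the seeds are GGGATGC for the 5p strand and GGCAGTG for the 3p strand, read on the transcript strand. Neither 7-base match was in the 3′ UTR of the main transcript of any of the 8 chains (438 to 2498 bases). Of 7110 3′ UTRs in the same range of lengths, 7.20% held the first and 13.3% the second. These were the longest annotated 3′ UTR of each tested coding gene, a rule unlike that used for the chains. The shorter matches of 6 bases, GGATGC and GCAGTG, occurred 2 times in Col5a1 for the 5p strand and 3 times in Col1a2 for the 3p strand. A match is a description of letters and not a shown site.

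The 250 bases before the RefSeq start were available for 5 chains, and 2 are shown because Col11a1 had the most negative and Col3a1 the only positive change. Capitals mark 3 motifs searched on both strands, none of which overlaps another in the windows shown. The motifs are CCAAT, the box named for its letters, TATAAA, the core of the TATA box, and GGGCGG, the GC box:
Col3a1 (chr1:45311288-45311537, plus strand): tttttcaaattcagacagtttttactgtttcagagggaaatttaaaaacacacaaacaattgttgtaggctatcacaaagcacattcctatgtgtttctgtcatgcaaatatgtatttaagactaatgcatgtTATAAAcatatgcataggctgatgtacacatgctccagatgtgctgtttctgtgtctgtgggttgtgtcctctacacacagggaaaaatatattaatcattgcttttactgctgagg
Col11a1 (chr3:114030290-114030539, plus strand): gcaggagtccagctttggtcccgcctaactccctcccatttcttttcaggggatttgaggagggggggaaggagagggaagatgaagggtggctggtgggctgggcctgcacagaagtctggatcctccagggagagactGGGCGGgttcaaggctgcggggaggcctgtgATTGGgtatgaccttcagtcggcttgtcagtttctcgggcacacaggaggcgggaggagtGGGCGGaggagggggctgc
The Col3a1 window was 35.2% G or C and held 1 TATAAA, near the middle of the window and not close to the start. A motif here is a match of letters, and its use was not tested. The Col11a1 window was 62.4% G or C and held 1 CCAAT, on the minus strand, and 2 GGGCGG. Of 27025 windows of this length, 34.5% held CCAAT, 13.0% TATAAA and 32.9% GGGCGG. Among the 5 chains, CCAAT was in Col1a2 and Col11a1, TATAAA in Col3a1 and Col11a2, and GGGCGG in Col1a2, Col5a1, Col11a1 and Col11a2. The Col1a2 window lies inside the span of that gene in GENCODE and reaches into the first exon of its main transcript there, so its motifs are not all upstream of the annotated gene.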

How the data were processed

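RNA of medial knee cartilage caps was sequenced from 5 wild-type and 5 Mir324-null mice. The authors deposited 1 table of TPM per Ensembl mouse transcript, with kallisto, DESeq2 and the human build GRCh38 named in the submitters' processing notes, although the identifiers are of mouse. The index used is not given in the sources used here, no count depth is known, and no batch could be modelled. Columns were matched to mice by name, and each summed to 1000000 TPM.

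Of 116912 transcripts, 115440 matched GENCODE M21 (GRCm38) without version numbers, and 1472 (0.275% to 0.356% of TPM) were left out. TPM were summed to 35705 genes, and the 13841 with a mean of at least 1 TPM were tested as log2(TPM + 1), which understates changes of low genes, with limma 3.58.1 in R 4.3.3 (trend), two-sided, with Benjamini-Hochberg adjustment over all of them and a threshold of 0.05. Ratios, correlations and sums were computed in Python 3.11.15 (numpy 2.4.6, pandas 2.3.3, scipy 1.17.1, matplotlib 3.10.9). The fits were tested on simulated data. Alternatives were other scalings, pseudocounts, filters, transcript sets, a replicate block and leaving out each mouse.

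Genes named are the members, in each list the up to 3 genes of smallest unadjusted p, the 5 genes most correlated with Col1a1 and with Col2a1, and markers. The 5 genes most correlated with Col3a1 were added after its values were seen. The members and lists were chosen with earlier results of these data known. Genotype labels were not checked against the microRNA, whose own level was not analysed here.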

Additional observations from a re-analysis of the deposited data

Results flagged for a closer look

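In 34 groups of 5 mice, each a level or a ratio of the chains in 1 genotype, the highest or lowest mouse was compared with the rest by Dixon's criterion (a gap over 0.71 of the group's range), which chance passes in about 1 group in 20. There were 2 such mice. The Col1a1/Col1a2 ratio of wild-type replicate 2 was 1.06, with the nearest wild-type mouse at 0.907 and a gap of 0.821 of the range, and it was the only mouse of 10 with more Col1a1 than Col1a2. The Col11a2/Col2a1 ratio of null replicate 4 was 1.72, with the nearest null mouse at 1.26 and a gap of 0.735 of the range.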

How the results depend on the processing

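Over 21 alternatives, each of the 8 chains kept its direction and none had an adjusted p under 0.05 in limma (from -1.12 to -0.76 for Col1a1, -1.11 to -0.75 for Col1a2, 0.51 to 1.40 for Col3a1, -0.61 to -0.29 for Col5a1, -0.86 to -0.51 for Col5a2, -0.84 to -0.48 for Col2a1, -1.16 to -0.77 for Col11a1 and -0.84 to -0.51 for Col11a2). The smallest adjusted p among them was 0.163. Without 1 mouse, at most 1 gene of all tested passed the adjusted threshold. The median change of all genes was 0.011 with median-ratio scaling, 0.0038 with quantile normalization and 0.035 after rescaling without haemoglobin genes. Chains lower at an unadjusted p under 0.05 numbered 3 to 7 when 1 mouse was left out. Of the 55 list genes, 43 to 49 had a lower estimate and 0 passed.

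The difference in Col1a1/Col1a2 lay between -0.026 and 0.044 without 1 mouse, and turned without wild-type replicate 2 (0.044), null replicate 1 (0.011) or null replicate 2 (0.015). That in Col11a2/Col2a1 lay between -0.14 and 0.039, and turned without wild-type replicate 3 (0.039) or 4 (0.0012) or null replicate 2 (0.022) or 5 (0.011). The cause was not tested. The r of Col1a1 with Col3a1 was 0.641 with values centred within genotype (permutation p adjusted 0.0492) and 0.055 with median-ratio scaling. The first p may be too small, as the shuffling did not allow for the removed group means. The ratio of summed types I, III and V to II and XI differed by -0.976, and by -1.41 to -0.707 under 12 alternatives.

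Replicate numbers are shared between genotypes in the labels but were not found to pair the mice, since deviations of same-numbered mice correlated at -0.14 to 0.056 and 0 of 5 mice correlated best with their own number. With the number as a replicate block the estimates were the same, the log2 change of Col1a1 being -0.94 (limma adjusted p = 0.529), 0 chains passed, and 5 instead of 6 were lower at an unadjusted p under 0.05.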
